A study of Rattus norvegicus with 16 samples.

Results

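The genes described here are the extracellular and membrane parts of the Wnt pathway: the Wnt ligands, their Frizzled receptors and Lrp co-receptors, the R-spondins with their Lgr receptors, the secreted antagonists, and the feedback genes Axin2, Znrf3 and Rnf43. They were matched by symbol, in a choice made with earlier results of these data known, and the rule found 51 of the 31038 genes in the deposited tables. RNA was sequenced from rat Schwann cells and from whole sciatic nerve, in 16 libraries that fall into 8 groups of 2. The groups were uncrushed nerve and nerve taken 3, 5 and 7 days after a crush, for Schwann cells and for whole nerve. The labels give postnatal day 18 for all animals and name no genotype or treatment other than the crush. Surgery was done at postnatal day 18, so nerves taken after the crush came from animals older than that at collection. Age may therefore run with day after crush, and the effects of these cannot be told apart. Each sample of purified cells was made from at least 10 nerves, and from injured nerves only the segment distal to the crush was used, with the matching segment taken from uncrushed nerve. Uncrushed nerves were collected without a sham operation. Schwann cells were purified by immunopanning, in which dissociated cells are passed over antibody-coated dishes: CD45 and Thy1 dishes held back myeloid cells and fibroblasts, and an O4 dish kept Schwann cells. Uncrushed Schwann cells went through the same dissociation and panning as the injured ones, whereas whole nerve was extracted without dissociation.

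Wnt proteins are lipid-modified secreted signals that bind a Frizzled receptor and, for the pathway that runs through β-catenin, the co-receptors Lrp5 and Lrp6. R-spondins bind Lgr4, Lgr5 or Lgr6 and the membrane ubiquitin ligases Znrf3 and Rnf43, which otherwise remove Frizzleds from the cell surface, so that R-spondin makes a cell more sensitive to Wnt. Sfrp proteins, Frzb and Wif1 bind Wnt ligands outside the cell, Dkk proteins of the Dkk1 type bind Lrp5 and Lrp6, and Axin2 is a part of the complex that degrades β-catenin and is itself switched on by the pathway. In the nerve, Wnt signals are known mainly for their role in the onset of myelination and in the growth of axons.

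Summed expected counts lay between 12334355 and 27562637 per Schwann cell library and between 10555067 and 20203912 per whole nerve library. Levels below are the FPKM values that the authors made with RSEM, divided by the TMM scaling factor of the library within its tissue, and are called normalised FPKM. FPKM corrects for gene length, so levels can be set beside each other between genes. Changes were tested on the expected counts with edgeR's quasi-likelihood test, and an adjusted p below is that test's Benjamini-Hochberg value over all genes tested. The ranges of adjusted p over alternatives also hold those of the DESeq2 Wald test. A gene is said to have risen, fallen or been called where that value is below 0.05. A permutation test of 2 libraries against 2 cannot give a two-sided p below 0.333, so these p-values rest on the spread that edgeR estimates across genes. The filter on low counts kept 30 of the 51 genes in the fit of Schwann cells, 34 in that of whole nerve and 38 in that of all 16 libraries. It keeps a gene that is well counted in as few as 2 libraries, so a gene absent from 1 group can pass it through another, and shares of the tested genes are not shares of all 51. A group with 3 counts or fewer in each library is treated as at the floor. A fold against such a group is given from the summed counts with its exact 95% counting interval, or as a lower bound where the sum is 0.

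Markers of the Schwann cell were present in all 16 libraries, with none of 9 at 0. The 7 fibroblast markers summed to 1325 and 1361 normalised FPKM in uncrushed Schwann cells and to 191 to 339 after crush, against 6583 to 9027 in whole nerve. Most of the fall in the sum was Col3a1, which went from 1000 and 1038 to between 20.9 and 123. Of the 7, 1 was called higher and 2 lower in Schwann cells at day 3, 1 higher and 3 lower at day 5, and 0 higher and 1 lower at day 7. Col1a1 went from 294 and 304 to between 142 and 236, Fn1 from 5.34 and 4.59 to 10.8 and 22.2 at day 3 and to between 3.07 and 7.59 later, and Dcn from 16.5 and 8.10 to between 3.04 and 18.8. Replicate 2 of Schwann cells at day 3 stood apart from its partner, with 13.3 normalised FPKM of myeloid markers against 2.65 and more Dcn, 18.8 against 6.96. Replicate 1 of Schwann cells at day 5 also differed from its partner, with 8.93 of myeloid markers against 2.80, Aif1 at 4.88 against 0.778 and Lum at 4.17 against 0.807. In replicate 2 of uncrushed whole nerve the skeletal muscle markers summed to 292, against at most 25.1 in the other whole nerve libraries. The 5 perineurial markers in Schwann cells summed to 116.6 to 117.9 before crush and 58.1 to 65.4 after it, and the 6 markers of pericytes and smooth muscle to 36.1 to 47.0 and 7.80 to 18.2. In whole nerve the 7 myeloid markers summed to 152 to 167 uncrushed, 505 to 516 on day 3, 302 to 325 on day 5, and 316 to 318 on day 7, with 7, 7 and 6 of them called higher. The Schwann cell markers there summed to 22310 to 26720 uncrushed and to 2195 to 4390 after crush. The part of other cells in the results below was not tested.

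In Schwann cells the receptors of the pathway changed after crush in both directions. Lgr5, the most abundant of the 51 genes in uncrushed Schwann cells at 124 ± 5.47 normalised FPKM (SD, n = 2), fell by 4.30 on the log2 scale at day 3. Sfrp5, a secreted antagonist, fell from 28.0 ± 1.00 to below 0.4 in both day 3 libraries. The Frizzled receptors Fzd6 and Fzd7 rose from near 0 while Fzd1 and Fzd4 fell. Axin2, the usual readout of β-catenin signalling among these genes, was not called at any day.

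Of the 30 genes tested in Schwann cells, 6 rose and 15 fell at day 3, together 21, and the comparison called 52.5% of all 14961 genes tested, 26.9% as higher and 25.7% as lower. At day 5, 6 rose and 17 fell, with 54.6% of all genes called, 29.0% higher and 25.6% lower. At day 7, 7 rose and 13 fell, with 46.9% of all genes called, 25.0% higher and 21.9% lower. The median log2 fold change of the 30 genes was -0.57 at day 3, -0.83 at day 5 and -0.69 at day 7, where that of all genes tested was 0.00, 0.06 and 0.06. The 6 genes that rose at all 3 days were Fzd2, Fzd3, Fzd6, Fzd7, Wnt10b and Wnt11, and 18.6% of all genes tested did so. The 11 that fell at all 3 days, as did 16.3% of all genes, were Dkk1, Fzd1, Fzd4, Lgr4, Lgr5, Lrp5, Lrp6, Sfrp4, Sfrp5, Wnt2b and Wnt6.

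Of 34 genes tested in whole nerve, 4 rose and 10 fell at day 3, with 45.6% of all 15831 genes called, 23.1% higher and 22.5% lower. At day 5, 6 rose and 6 fell, with 38.4% of all genes called, 18.9% higher and 19.5% lower, a count of 12 that became 4 without replicate 2 of day 5. At day 7, 5 rose and 5 fell, with 31.3% called, 15.4% higher and 15.9% lower. The median log2 fold changes were -0.15, -0.20 and -0.04, against 0.00, -0.01 and 0.02 over all genes tested. Dkk3 and Fzd2 rose at all 3 days in whole nerve, and Lgr5, Lgr6 and Wnt5a fell at all 3, as did 10.8% and 11.3% of all genes in turn. In whole nerve a change can come from more or fewer cells of a type or from more or less RNA per cell, and these cannot be told apart.

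**Figure D1:**
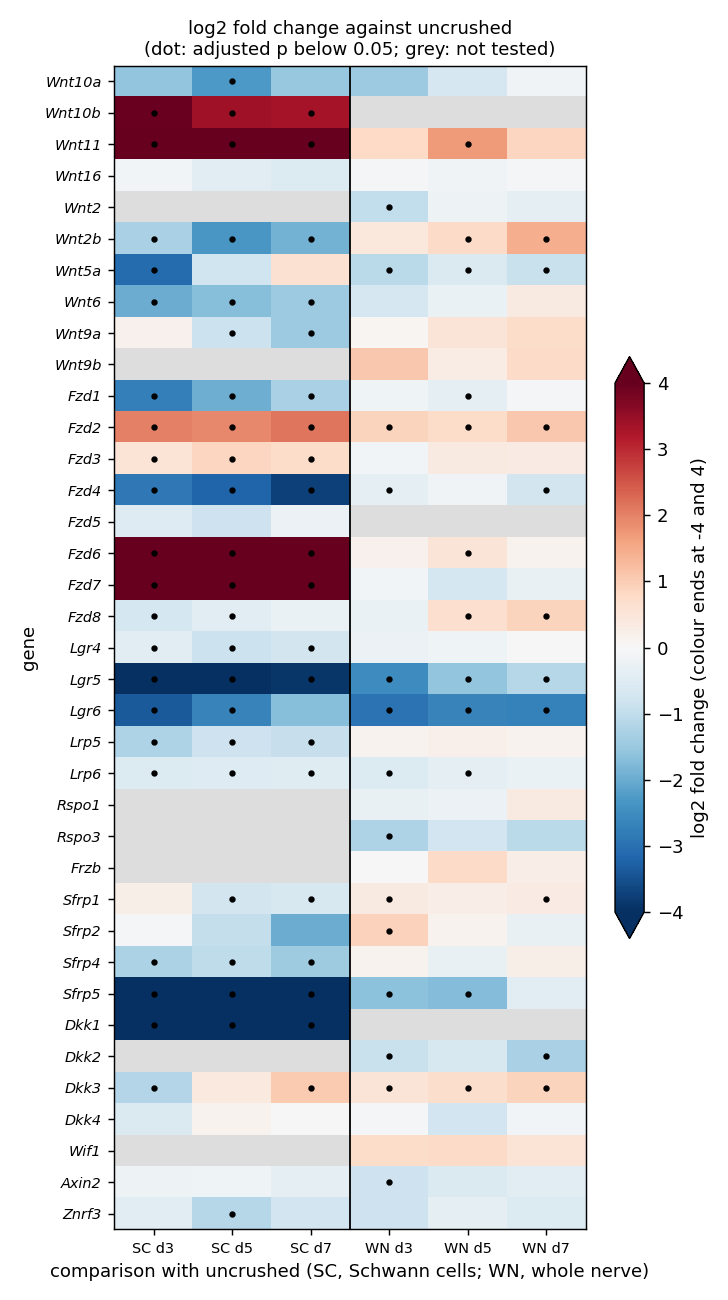
Log2 fold change against uncrushed of the genes tested in at least 1 tissue (rows, grouped by role) at days 3, 5 and 7 in Schwann cells (SC, left 3 columns) and whole nerve (WN, right 3 columns). Red is higher and blue lower than uncrushed, dots mark an adjusted p below 0.05 and grey was not tested. Fzd6, Fzd7 and Wnt11 are dark red and Lgr5, Sfrp5 and Dkk1 dark blue in all 3 Schwann cell columns, and most whole nerve cells are paler.

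The difference between the tissues was tested directly, as the change in Schwann cells minus the change in whole nerve in the fit of 16 libraries. This difference was called for 14 of 38 genes at day 3, with 26.0% of all 16829 genes called, for 17 at day 5, with 27.5% called, and for 18 at day 7, with 26.0% called. Over all genes it was called as more positive in Schwann cells for 12.3%, 12.6% and 11.6% and as more negative for 13.7%, 14.9% and 14.4% at the 3 days. At all 3 days the response was more positive in Schwann cells for Fzd2, Fzd6, Fzd7 and Wnt11, and more negative for Fzd1, Fzd4, Lgr5, Lrp5, Sfrp5, Wnt2b and Wnt6, beside 7.24% and 7.76% of all genes. The calls of Fzd1, Fzd4, Lgr5 and Wnt2b held under every alternative tried. Those of Fzd6, Fzd7 and Sfrp5 held under every alternative except the filter of at least 10 counts in every library, under which these genes could not be tested. The calls of the other 4 were less firm. Fzd2 (1.01, 1.06 and 0.95) lost its call at each day without replicate 1 of uncrushed Schwann cells (0.65, 0.70 and 0.59), without replicate 2 of uncrushed nerve (0.75, 0.79 and 0.65) and without 1 library of each tissue on the day itself, which were replicate 2 of both at day 3 (0.96 and 0.94), replicate 1 of both at day 5 (1.02 and 0.96), and Schwann cell replicate 2 and whole nerve replicate 1 at day 7 (0.84 and 0.86). Lrp5 kept its call at day 3 but lost it at days 5 and 7 without replicate 1 of uncrushed Schwann cells (-1.02 and -1.06), without replicate 2 of uncrushed nerve (-0.96 and -1.02) and without Schwann cell replicate 2 or whole nerve replicate 1 at day 5 (-1.0 and -0.86) or Schwann cell replicate 1 or whole nerve replicate 2 at day 7 (-1.07 and -0.87). Wnt11 lost its call at each day without replicate 1 of uncrushed nerve (3.47, 2.44 and 2.67) and at day 5 also without replicate 2 of uncrushed Schwann cells (2.43). Without replicate 1 of uncrushed Schwann cells, which leaves a library with 0 counts, its values of 4.31, 3.29 and 3.55 became 8.26, 7.24 and 7.50, and without replicate 2 those of days 3 and 7 were 3.45 and 2.68. Wnt6 lost its call at days 3 and 5 without replicate 2 of uncrushed Schwann cells (-0.84 and -1.0), replicate 1 of uncrushed nerve (-1.18 and -1.35) or Schwann cell replicate 2 of the day (-1.13 and -1.56), and at day 3 also without whole nerve replicate 2 (-1.08). The highest adjusted p was 0.2 for Fzd2, 0.102 for Lrp5, 0.213 for Wnt11 and 0.17 for Wnt6. A few genes were called in opposite directions in the 2 tissues on the same day, namely Dkk3 at day 3, Fzd8 and Wnt2b at day 5, and Sfrp1 and Wnt2b at day 7. The share of all genes with such opposite calls was not counted, so these cannot be set beside it.

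The Lgr receptors bind R-spondins, and Lgr4 and Lgr5 were among the 3 most abundant of the 51 genes in uncrushed Schwann cells. Lgr5 stood at 127 and 120 normalised FPKM in uncrushed Schwann cells, 6.79 and 5.89 on day 3, 6.16 and 5.95 on day 5, and 7.98 and 8.92 on day 7. Every crushed library lay far below both uncrushed ones. The log2 fold changes were -4.30 ± 0.12 (SE), -4.37 ± 0.12 and -3.88 ± 0.12, with adjusted p of 4.1e-08, 6.5e-08 and 9.4e-08. Between day 3 and day 7 Lgr5 rose by 0.42 on the log2 scale (adjusted p = 0.026), a call that was lost without replicate 2 of day 3 (0.31) or without either day 7 library (0.34 and 0.49), with adjusted p of 0.0117 to 0.226 over its alternatives. In whole nerve Lgr5 was at 11.1 and 15.2 in uncrushed nerve, 2.11 and 2.46 on day 3, 3.90 and 4.80 on day 5, and 5.86 and 5.95 on day 7. There it fell, with log2 fold changes of -2.51 ± 0.17, -1.58 ± 0.16 and -1.14 ± 0.16 and adjusted p of 9.8e-07, 2.8e-05 and 0.00033. The change in Schwann cells minus that in whole nerve was -1.90, -2.91 and -2.86, each ± 0.19. From day 3 to day 7 it rose by 1.36 in whole nerve (adjusted p = 0.0003). In the GRCr8 gene records Lgr5 overlaps another protein-coding record, and the library kit is not stated to keep strand, so reads of that record cannot be told apart from its own.

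Lgr4, the more broadly expressed receptor of the family, fell less. Its levels in Schwann cells were 94.7 and 79.6 uncrushed, 66.7 and 63.4 on day 3, 48.4 and 48.3 on day 5, and 51.1 and 53.7 on day 7. The groups did not overlap, and the log2 fold changes were -0.43 ± 0.10, -0.86 ± 0.11 and -0.74 ± 0.11, with adjusted p of 0.0070, 0.00011 and 0.00037. The day 3 call was lost without replicate 2 of day 3 (log2 fold change -0.38), and its adjusted p over the alternatives ran from 0.000747 to 0.07. In whole nerve Lgr4 stayed between 16.2 and 22.6 in all 8 libraries, with no call. Lgr6 was low in Schwann cells, at 1.10 and 1.08 uncrushed, 0 and 0.189 on day 3, 0.140 and 0.214 on day 5, and 0.342 and 0.311 on day 7. Its replicates at day 3 differed, with 0 counts against 28, and the log2 fold change of -3.37 ± 0.75 (adjusted p = 0.0040) became -2.59 without replicate 1 and -9.61 without replicate 2 of that day. At day 5 it was -2.67 ± 0.72 (adjusted p = 0.011), which was lost without replicate 1 of day 5 (-2.41, adjusted p of 1.49e-09 to 0.0713 over the alternatives), and at day 7 it was not called (-1.69). Whole nerve held more Lgr6, 2.48 and 3.60 uncrushed, 0.432 and 0.331 on day 3, 0.364 and 0.561 on day 5, and 0.508 and 0.397 on day 7. There the fall was -2.97 ± 0.29, -2.67 ± 0.29 and -2.70 ± 0.29, with adjusted p of 1.6e-05, 4.5e-05 and 6.2e-05.

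Summed over the 3 Lgr genes, the level in Schwann cells was 212 ± 16.2 (SD, n = 2) uncrushed, 71.5 ± 2.80 at day 3, 54.6 ± 0.18 at day 5 and 61.2 ± 2.47 at day 7. Lgr5 made up 58.4% ± 1.88 of it before crush. In whole nerve the sum was 36.6 ± 6.81, 19.8 ± 1.53, 22.7 ± 2.68 and 26.4 ± 3.48.

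The ligands of these receptors, the R-spondins, were scarce in Schwann cells. Rspo1 had 2 to 11 counts per Schwann cell library, Rspo2 had 1 to 12 and Rspo3 had 0 to 13, and none of the 4 R-spondins passed the filter in Schwann cells. Rspo4 had 0 counts in all 8 Schwann cell libraries. Summed over the 4, the level in uncrushed cells was 0.159 ± 0.0514 in Schwann cells and 14.2 ± 0.440 in whole nerve. In whole nerve Rspo1 was at 7.80 and 7.27 uncrushed and 5.50 to 9.78 after crush, with no call against uncrushed at any day. Rspo3 in whole nerve was at 6.57 and 6.61 uncrushed, 1.44 and 3.68 on day 3, 3.86 and 3.91 on day 5, and 3.10 and 3.37 on day 7. It fell at day 3 (-1.24 on the log2 scale, adjusted p = 0.022), a call that was lost without replicate 1 of uncrushed nerve (-1.3), replicate 2 of uncrushed nerve (-1.21) or replicate 1 of day 3 (-0.70) and became -2.11 without replicate 2 of day 3. In the fit of all 16 libraries it was also lost (-1.18). Its adjusted p ran from 0.000662 to 0.103. In Schwann cells Rspo3 had 0 counts in both libraries before crush, 1 and 0 on day 3, 6 and 5 on day 5, and 4 and 13 on day 7, so that most of its day 7 counts came from replicate 2.

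**Figure D2:**
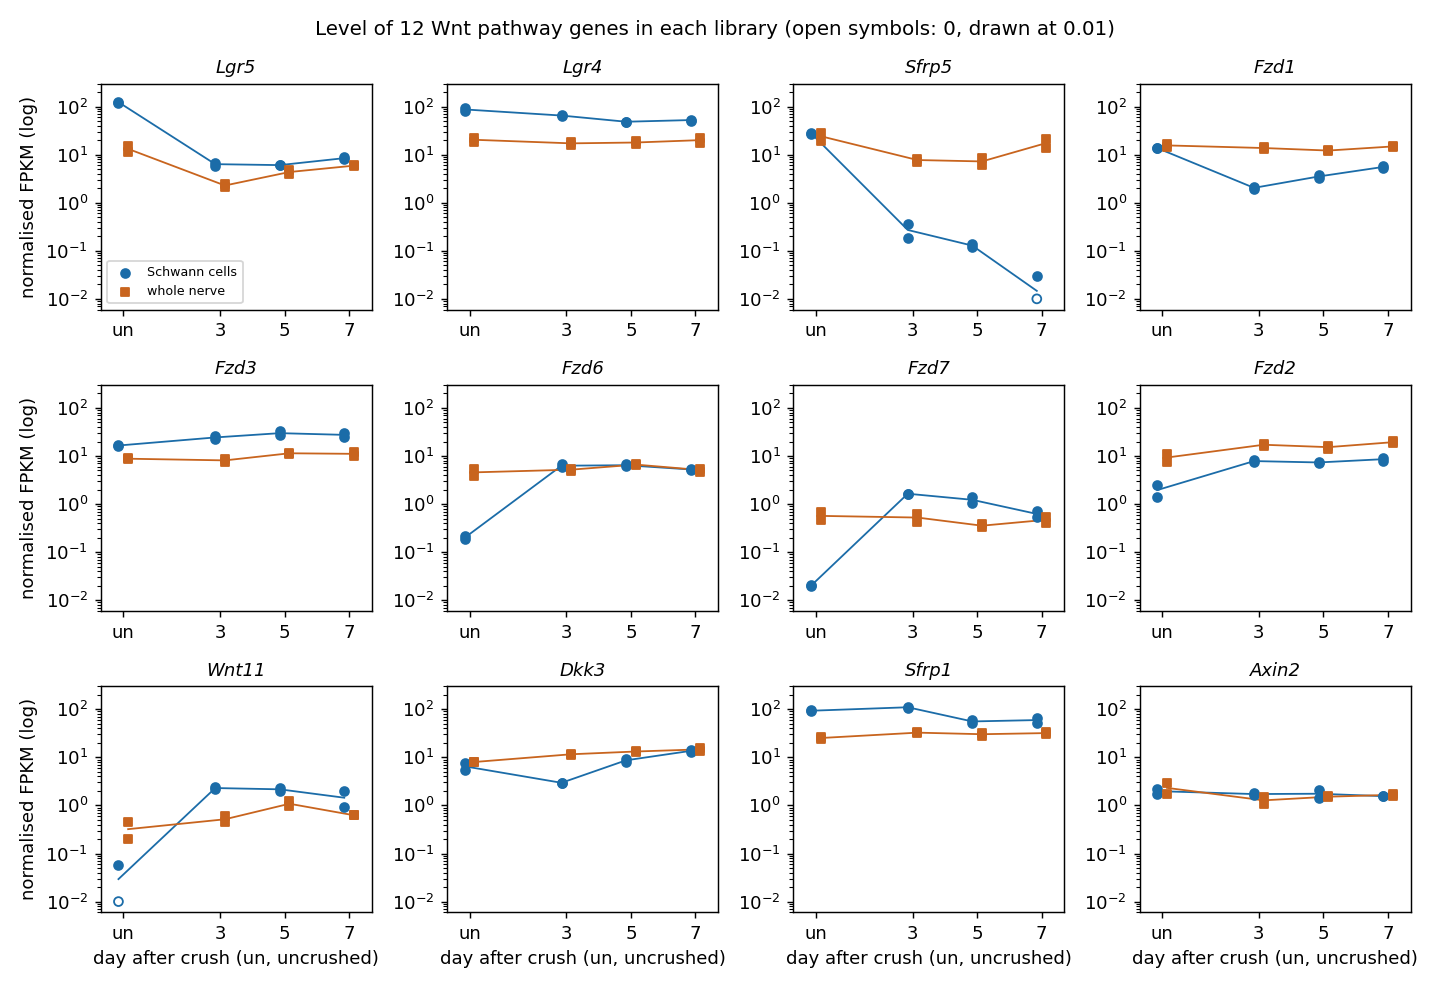
Normalised FPKM of 12 of the genes in every library (log axis), by day after crush, with Schwann cells as circles and whole nerve as squares, lines through the means of 2 libraries and open symbols for a value of 0 drawn at 0.01. Lgr5 and Sfrp5 drop by more than 10-fold in Schwann cells by day 3, Fzd6, Fzd7 and Wnt11 climb from below 0.3, and Axin2 stays between 1.07 and 2.88 in both tissues.

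Frizzled receptors are the proteins that Wnt ligands bind at the cell surface, and the genes present in Schwann cells differed before and after crush. Their summed level was 46.8 ± 0.49 normalised FPKM uncrushed, 50.3 and 49.7 in the 2 libraries of day 3, 56.8 ± 4.40 at day 5 and 56.7 ± 4.79 at day 7. Fzd1 was at 14.0 and 13.4 in uncrushed Schwann cells, 1.93 and 2.14 on day 3, 3.72 and 3.31 on day 5, and 5.74 and 5.35 on day 7. Its share of the Frizzled sum went from 29.3% ± 0.51 to 4.08% ± 0.33 at day 3. Its log2 fold changes were -2.75 ± 0.13, -1.97 ± 0.12 and -1.31 ± 0.12, with adjusted p of 2.1e-07, 1.4e-06 and 2.3e-05, and Fzd1 rose again by 1.44 between days 3 and 7 (adjusted p = 8.3e-05). Fzd4, which also serves as the receptor of norrin in blood vessels, was at 4.64 and 5.02 uncrushed, 0.504 and 0.809 on day 3, 0.411 and 0.652 on day 5, and 0.381 and 0.341 on day 7. Fzd4 fell, with log2 fold changes of -2.85 ± 0.25, -3.19 ± 0.26 and -3.73 ± 0.27, with adjusted p of 1.0e-05, 7.1e-06 and 5.8e-06. The 6 endothelial markers summed to 4.85 and 5.95 in uncrushed Schwann cells and to 1.19 to 4.72 after crush, with Pecam1 at 0 in both uncrushed libraries. Of the 4 that passed the filter, 2 were called lower and none higher at each of days 3, 5 and 7. The median log2 fold change of these 4 was 0.21 at day 3, so they did not all fall then. It was -1.04 at day 5 and -1.47 at day 7. Tek went from 4.14 and 3.26 to between 0.360 and 1.54, and Kdr from 1.17 and 1.19 to between 0.247 and 0.735. The part of endothelial RNA in the fall of Fzd4 was not tested.

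Fzd6 was nearly absent before crush, at 0.215 and 0.184, and stood at 5.86 and 6.70 on day 3, 6.66 and 6.20 on day 5, and 5.20 and 5.30 on day 7. The log2 fold changes of this receptor, known for its role in planar cell polarity, were 4.97 ± 0.19, 5.01 ± 0.19 and 4.72 ± 0.19, with adjusted p of 7.5e-08, 1.0e-07 and 2.3e-07. Fzd2 rose from 1.42 and 2.5 to 7.54 and 8.15 on day 3, 7.59 and 7.09 on day 5, and 7.89 and 9.28 on day 7. Its log2 fold changes were 2.01 ± 0.24, 1.91 ± 0.24 and 2.14 ± 0.24, with adjusted p of 7.8e-05, 0.00012 and 8.0e-05. Its share of the Frizzled sum went from 4.19% ± 1.67 to 15.7% ± 0.98 at day 3, and that of Fzd6 from 0.426% ± 0.042 to 12.6% ± 1.28.

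Fzd7 had 1 count in each uncrushed Schwann cell library, and its levels were 1.62 and 1.66 on day 3, 1.05 and 1.40 on day 5, and 0.528 and 0.720 on day 7. The ratio to uncrushed was 79.1 at day 3 (95% counting interval 21.7 to 657), 58.7 at day 5 (16 to 489) and 29.3 at day 7 (7.81 to 247), with adjusted p of 4.5e-06, 9.5e-06 and 7.3e-05. The highest level was thus at day 3, and the log2 fold change of -1.40 from day 3 to day 7 was called (adjusted p = 0.0072). That call was lost without replicate 1 of day 7 (-1.18), with adjusted p of 0.000649 to 0.0652 over its alternatives. Fzd3, the most abundant Frizzled gene of Schwann cells in every group, rose from 16.9 and 16.2 to 25.9 and 22.8 on day 3, 32.4 and 27.3 on day 5, and 25.1 and 29.9 on day 7. It rose by 0.55 ± 0.13, 0.85 ± 0.13 and 0.73 ± 0.13 on the log2 scale, with adjusted p of 0.0060, 0.00050 and 0.0016. The day 3 call was lost without replicate 1 of day 3 (0.43), with adjusted p of 0.000285 to 0.0627 over its alternatives. Fzd8 was at 9.48 and 7.72 uncrushed, 6.24 and 6.81 on day 3, 7.43 and 7.33 on day 5, and 7.42 and 8.54 on day 7. It fell at day 3 (-0.70 ± 0.11, adjusted p = 0.00051) and at day 5 (-0.46 ± 0.11, adjusted p = 0.0052) and was not called at day 7 (-0.28), when its libraries overlapped those before crush. Fzd5 had 11 to 29 counts per Schwann cell library and was not called.

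In uncrushed whole nerve the most abundant Frizzled gene was Fzd4, with 37.6 and 28.1, and it was at 25.3 and 24.9 on day 3, 32.0 and 27.4 on day 5, and 17.8 and 21.4 on day 7. It fell by 0.75 on the log2 scale at day 7 (adjusted p = 0.0029). The call at day 3 (-0.39, adjusted p = 0.045) was lost without replicate 1 of uncrushed nerve (-0.16), without either day 3 library (-0.39 and -0.38), in the fit of all 16 libraries (-0.32) and with upper quartile scaling (-0.38), with adjusted p of 0.00365 to 0.407. Fzd2 rose from 7.56 and 11 to 18.0 and 16.3 on day 3, 14.1 and 16.5 on day 5, and 18.2 and 20.5 on day 7. Its log2 fold changes were 0.90 ± 0.18, 0.73 ± 0.18 and 1.08 ± 0.18, with adjusted p of 0.0019, 0.0085 and 0.0011, and that of day 5 was lost without replicate 1 of uncrushed nerve (0.47) or replicate 2 of day 5 (0.61), with adjusted p of 8.72e-06 to 0.0675. Fzd8 was at 1.3 and 1.70 uncrushed, 1.07 and 1.41 on day 3, 2.12 and 2.56 on day 5, and 2.42 and 3.06 on day 7. It rose by 0.68 ± 0.21 at day 5 (adjusted p = 0.028) and 0.90 ± 0.21 at day 7 (adjusted p = 0.0084). Both calls were lost without replicate 1 of uncrushed nerve (0.47 and 0.69), and without replicate 2 of the day itself (0.54 and 0.73), with adjusted p of 0.00217 to 0.18 at day 5 and 3.69e-05 to 0.0707 at day 7.

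Fzd6 in whole nerve was at 5.26 and 3.87 uncrushed, 5.48 and 4.91 on day 3, 6.84 and 6.41 on day 5, and 5.49 and 4.74 on day 7. It was called at day 5 alone (0.52, adjusted p = 0.027), and without replicate 2 of uncrushed nerve (0.34) or either day 5 library (0.48 and 0.58) that call was lost, with adjusted p of 0.00387 to 0.16. Fzd1 was at 14.1 and 17.0 uncrushed, 13.2 and 14.2 on day 3, 11.6 and 12.7 on day 5, and 14.5 and 15.1 on day 7, with a call at day 5 (-0.35, adjusted p = 0.027). That call was lost under 5 of 11 alternatives, among them without replicate 2 of uncrushed nerve (-0.21) and without either day 5 library (-0.28 and -0.41), with adjusted p of 0.0112 to 0.216. Fzd7 in whole nerve lay between 0.327 and 0.678 and Fzd3 between 7.41 and 12.3, and neither was called against uncrushed. The change of Fzd6 and Fzd7 was more positive in Schwann cells, by 4.70 ± 0.27 and 6.18 ± 0.65 on the log2 scale at day 3, with adjusted p of 4.7e-08 and 7.8e-06. The value of Fzd7 depends on the prior count, since uncrushed Schwann cells are at the floor.

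**Figure D3:**
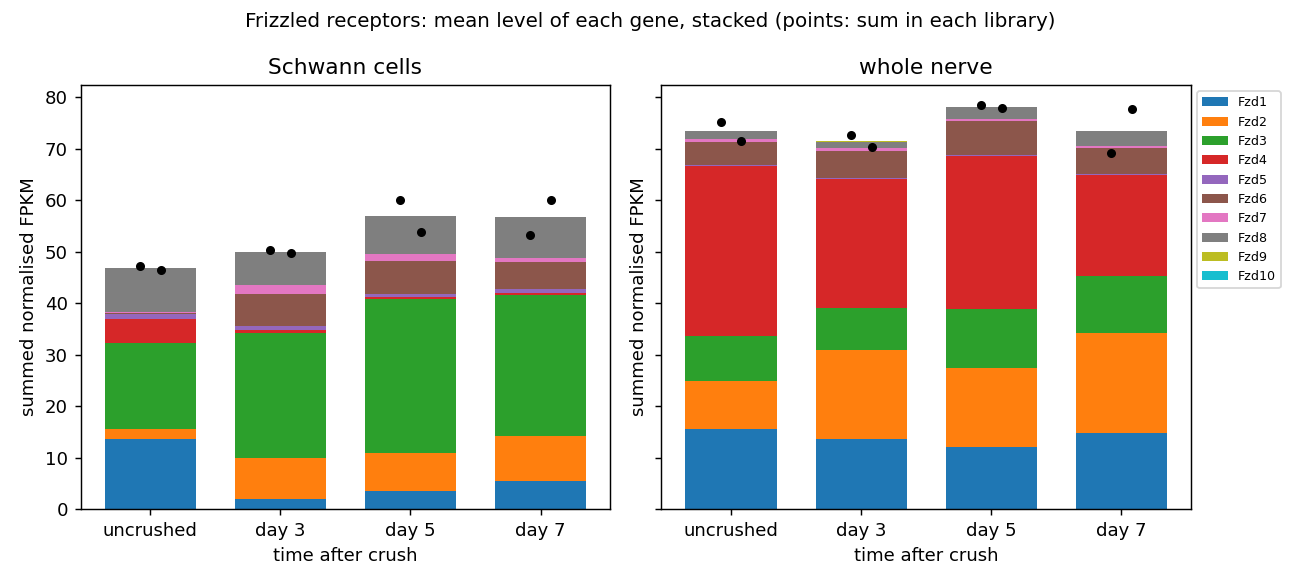
Mean normalised FPKM of each Frizzled gene, stacked, in Schwann cells (left) and whole nerve (right) by time after crush, with points for the sum in each of 2 libraries. In Schwann cells the total goes from 46.8 to 56.7 while the parts of Fzd1 and Fzd4 shrink and those of Fzd2, Fzd3 and Fzd6 grow, and in whole nerve Fzd4 is the tallest part before crush.

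The co-receptors Lrp5 and Lrp6 fell in Schwann cells at all 3 days. Lrp6 was the more abundant, at 29.7 and 26.2 uncrushed, 19.6 and 18.6 on day 3, 19.2 and 20.2 on day 5, and 19.98 and 19.7 on day 7. The log2 fold changes were -0.55 ± 0.10, -0.51 ± 0.10 and -0.50 ± 0.10, with adjusted p of 0.0011, 0.0018 and 0.0025. Lrp5 was at 2.20 and 1.88 uncrushed, 0.864 and 0.893 on day 3, 1.29 and 1.02 on day 5, and 0.997 and 1.19 on day 7. It fell as well, with log2 fold changes of -1.22 ± 0.21, -0.82 ± 0.21 and -0.91 ± 0.21, with adjusted p of 0.00088, 0.0075 and 0.0057, and the call at day 5 was lost without replicate 1 of uncrushed cells (-0.70) or replicate 2 of day 5 (-0.66), with adjusted p of 0.00352 to 0.0627. In whole nerve Lrp6 was at 28.7 and 25.0 uncrushed, 17.9 and 18.7 on day 3, 21.3 and 20.8 on day 5, and 22.4 and 22.7 on day 7. It fell at day 3 (-0.55, adjusted p = 0.00062) and at day 5 (-0.35, adjusted p = 0.011), the latter call lost without replicate 1 of uncrushed nerve (-0.24) or either day 5 library (-0.36 and -0.33), with adjusted p of 0.00539 to 0.1. Lrp5 in whole nerve lay between 2.07 and 3.29 and was not called at any day.

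Among the ligands, Wnt16 and Wnt6 were the most abundant in uncrushed Schwann cells. Wnt16 was at 7.84 and 8.78 before crush and between 4.79 and 8.20 after it, with no call. At day 7 it was just short of the threshold (-0.55, adjusted p = 0.058) and was called lower under 7 alternatives (-0.79 to -0.54), and at day 5 (-0.46) under 3 (-0.71 to -0.45). Wnt6 stood at 5.17 and 10.4 uncrushed, 2.40 and 1.59 on day 3, 2.41 and 2.33 on day 5, and 2.73 and 2.96 on day 7. The 2 uncrushed libraries differed, but every crushed library lay below both. Its log2 fold changes were -1.99 ± 0.33, -1.72 ± 0.33 and -1.46 ± 0.33, with adjusted p of 0.00074, 0.0017 and 0.0050. Wnt2b was at 1.76 and 1.5 uncrushed, 0.709 and 0.704 on day 3, 0.300 and 0.350 on day 5, and 0.401 and 0.467 on day 7. It fell at every day, with log2 fold changes of -1.29 ± 0.18, -2.31 ± 0.19 and -1.90 ± 0.19, with adjusted p of 0.00022, 7.5e-06 and 3.4e-05. Wnt2b moved the other way in whole nerve, at 5.01 and 7.30 uncrushed, 7.78 and 8.05 on day 3, 9.18 and 11 on day 5, and 18.6 and 13.9 on day 7. There it rose by 0.77 ± 0.18 at day 5 and 1.45 ± 0.18 at day 7, with adjusted p of 0.0074 and 0.00020, and the day 5 call was lost without replicate 2 of day 5 (0.64), with adjusted p of 1.55e-11 to 0.0588. The response differed between the tissues at all 3 days, by -1.82 ± 0.26, -3.21 ± 0.28 and -3.47 ± 0.27, with adjusted p of 0.00013, 1.5e-06 and 7.5e-07.

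The ligands that rose in Schwann cells were Wnt11 and Wnt10b, both from the floor. Wnt11, often assigned to signalling without β-catenin, had 3 counts and 0 in the uncrushed libraries, and its levels were 2.40 and 2.21 on day 3, 2.28 and 2.04 on day 5, and 0.928 and 1.97 on day 7. The ratio to uncrushed was 38.9 at day 3 (95% counting interval 13.1 to 190), 36.9 at day 5 (12.4 to 181) and 23.3 at day 7 (7.69 to 115), with adjusted p of 0.00018, 0.00022 and 0.00077. Wnt10b had 2 counts and 0 uncrushed, 25 and 24 on day 3, 12 and 18 on day 5, and 14 and 11 on day 7. Its ratio to uncrushed was 15.7 at day 3 (95% counting interval 4.12 to 133), 11.2 at day 5 (2.85 to 96.8) and 10.8 at day 7 (2.69 to 93.9), with adjusted p of 0.0043, 0.011 and 0.015. The fitted values of both depend on which uncrushed library is used, since 1 of them is at 0. At day 3 the log2 fold change of Wnt11 went from 4.32 without replicate 2 to 9.25 without replicate 1 of the uncrushed cells and that of Wnt10b from 3.07 to 7.44, with like shifts at days 5 and 7. At day 7 that of Wnt11 was 3.90 without replicate 2 of day 7, against 4.53 with it. The calls of Wnt10b at days 5 and 7 were lost without replicate 2 of the uncrushed cells (2.52 and 2.46), and that of day 5 also without replicate 2 of day 5 (3.00), with adjusted p of 0.00147 to 0.0641 at day 5 and 0.0025 to 0.0794 at day 7. Wnt10b overlaps the tubulin gene Tuba1c in the GRCr8 records. Tuba1c had 423 and 544 counts in uncrushed Schwann cells and 2054 and 4347 at day 3, and in whole nerve at day 3 it had 4538 and 5269 counts where Wnt10b had 3 and 4. The part of Tuba1c reads in the count of Wnt10b was not tested.

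Wnt11 in whole nerve was at 0.444 and 0.198 uncrushed, 0.442 and 0.589 on day 3, 0.953 and 1.22 on day 5, and 0.630 and 0.619 on day 7. It was called at day 5 (1.71, adjusted p = 0.018), and this call was lost with DESeq2 (1.76) and without replicate 2 of uncrushed nerve (1.28) or replicate 2 of day 5 (1.61), and the value became 2.57 without replicate 1 of uncrushed nerve. Its adjusted p ran from 0.00542 to 0.0912.

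Wnt5a, the standard ligand of signalling without β-catenin, fell and came back in Schwann cells. Its levels were 1.14 and 0.685 uncrushed, 0.0411 and 0.137 on day 3, 0.641 and 0.379 on day 5, and 1.14 and 1.43 on day 7. The log2 fold change of -3.09 ± 0.50 at day 3 was called (adjusted p = 0.00065) and became -4.06 without replicate 2 of day 3, whereas days 5 (-0.78) and 7 (0.61) were not called. The rise from day 3 to day 7 was 3.70 ± 0.50 (adjusted p = 0.00078), or 4.67 without replicate 2 of day 3. In whole nerve Wnt5a was at 16.1 and 11.3 uncrushed, 7.14 and 5.38 on day 3, 10.1 and 8.25 on day 5, and 6.25 and 7.80 on day 7. All 6 crushed libraries lay below both uncrushed ones, and the log2 fold changes were -1.09 ± 0.19, -0.58 ± 0.19 and -0.90 ± 0.19, with adjusted p of 0.00099, 0.034 and 0.0052. The call at day 5 was lost without replicate 1 of uncrushed nerve (-0.25), without either day 5 library (-0.71 and -0.44) and in the fit of all 16 libraries (-0.48), with adjusted p of 0.000153 to 0.338. That at day 7 was lost without replicate 1 of uncrushed nerve (-0.58) or of day 7 (-0.74), with adjusted p of 4.02e-10 to 0.0521.

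Wnt9a in Schwann cells was at 1.10 and 1.19 uncrushed, 1.20 and 1.35 on day 3, 0.611 and 0.652 on day 5, and 0.440 and 0.399 on day 7. It fell at day 7 (-1.45 ± 0.30, adjusted p = 0.0032) and at day 5 (-0.85 ± 0.28, adjusted p = 0.027), the latter lost under 6 of 11 alternatives, among them without any 1 of its 4 libraries (-0.90 to -0.80), with adjusted p of 0.0125 to 0.104. Wnt10a was at 0.860 and 0.501 uncrushed, 0.339 and 0.137 on day 3, 0.120 and 0.156 on day 5, and 0.147 and 0.350 on day 7. It was called at day 5 (-2.30, adjusted p = 0.019), and this was lost without replicate 1 of uncrushed cells (-1.85) or either day 5 library (-2.11 and -2.49), with adjusted p of 0.00695 to 0.135. Wnt2 had at most 1 count in any Schwann cell library. In whole nerve it was at 1.68 and 1.62 uncrushed, 0.743 and 0.910 on day 3, 1.74 and 1.14 on day 5, and 1.29 and 1.25 on day 7, and it fell at day 3 (-0.99 on the log2 scale, adjusted p = 0.0038).

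The secreted Frizzled-related proteins bind Wnt ligands outside the cell, and the 4 measured here differed in where they were and in how they moved. Sfrp5 in Schwann cells was at 28.7 and 27.3 uncrushed, 0.185 and 0.357 on day 3, 0.120 and 0.136 on day 5, and 0.0293 and 0 on day 7. The log2 fold change was -6.58 ± 0.25 at day 3 and -7.77 ± 0.29 at day 5, with adjusted p of 7.5e-08 and 9.2e-08, and without replicate 2 of day 3 the former became -7.23. At day 7 a single count was left in 2 libraries, and the ratio of uncrushed to day 7 was 1564 (95% counting interval 280 to 61807, adjusted p = 1.3e-07). Its fitted value of -10.31 became -12.71 without replicate 1 and -9.66 without replicate 2 of day 7. In whole nerve Sfrp5 was at 19.6 and 28.8 uncrushed, 7.19 and 8.26 on day 3, 6.06 and 8.39 on day 5, and 21.5 and 13.4 on day 7. It fell there at days 3 and 5 (-1.64 ± 0.25 and -1.74 ± 0.26), with adjusted p of 0.00044 and 0.00043, and was not called at day 7 (-0.47), when 1 library lay within the range of uncrushed nerve. The response in Schwann cells minus that in whole nerve was -5.04 ± 0.43 at day 3 (adjusted p = 1.2e-06) and -6.15 ± 0.50 at day 5 (adjusted p = 8.1e-07). Without replicate 2 of Schwann cells at day 3 the former difference was -5.70.

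Sfrp1 was the most abundant antagonist of Schwann cells, at 90.1 and 96.5 uncrushed, 108 and 112 on day 3, 58.8 and 52.9 on day 5, and 52.7 and 66.7 on day 7. It was not called at day 3 (0.24) and fell at days 5 and 7 (-0.74 ± 0.12 and -0.65 ± 0.12), with adjusted p of 0.00074 and 0.0021. In whole nerve it was at 24.2 and 26.3 uncrushed, 33.4 and 32.0 on day 3, 28.5 and 32.1 on day 5, and 31.0 and 33.0 on day 7. It rose by 0.37 ± 0.10 at day 3 (adjusted p = 0.0089) and by 0.34 ± 0.10 at day 7 (adjusted p = 0.021). Both calls were lost without replicate 1 of uncrushed nerve (0.32 and 0.29), that of day 3 also without replicate 1 of day 3 (0.35) and that of day 7 without replicate 2 of day 7 (0.30), with adjusted p of 0.000891 to 0.0613 and 0.00615 to 0.119. Sfrp4 was by far the most abundant of the 51 genes in whole nerve, between 151 and 262 with no call, and low in Schwann cells, at 6.96 and 7.44 uncrushed, 1.65 and 4.22 on day 3, 3.61 and 3.55 on day 5, and 2.75 and 2.61 on day 7. In Schwann cells its log2 fold changes were -1.3 ± 0.34, -1.02 ± 0.33 and -1.43 ± 0.35, with adjusted p of 0.011, 0.027 and 0.0075. Without replicate 2 of day 3, the library with more myeloid marker RNA, the value at day 3 was -2.12. The call at day 5 was lost without any 1 of its 4 libraries (-1.06 to -0.99), with adjusted p of 0.000128 to 0.106. The summed level of the fibroblast markers was also lower in the crushed Schwann cells, mainly through Col3a1 as given above, and the part of fibroblast RNA in this result was not tested. Sfrp2 had 0 to 27 counts in Schwann cells, with no call. In whole nerve it was at 45.3 and 26.2 uncrushed, 71.6 and 63.9 on day 3, 46.0 and 34.7 on day 5, and 28.7 and 29.4 on day 7. It rose by 0.91 at day 3 (adjusted p = 0.0052) and fell by 1.22 from day 3 to day 7 (adjusted p = 0.0026).

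Of the Dkk genes, Dkk1 blocks Lrp5 and Lrp6, and it had 16 and 21 counts in uncrushed Schwann cells, 0 and 0 on day 3, 1 and 0 on day 5, and 1 and 1 on day 7. It was at least 19.2-fold lower at day 3, taking 3 counts over the day 3 group as the floor, and the ratio of uncrushed to crushed was 49.5 at day 5 (95% counting interval 8.35 to 2007) and 21.5 at day 7 (5.54 to 184). Adjusted p was 0.00098, 0.0021 and 0.0050, and the call at day 7 was lost without replicate 1 of day 7 (-4.02, adjusted p of 0.00263 to 0.0618 over the alternatives). The fitted value at day 5 moved from -5.32 to -7.55 without replicate 1 of day 5 and -4.52 without replicate 2. In whole nerve Dkk1 had 10 and 5 counts uncrushed and 0 to 2 per library after crush, and it did not pass the filter.

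Dkk3, a divergent member whose action on Wnt signals is not settled, fell and then rose in Schwann cells. It was at 7.64 and 5.37 uncrushed, 2.94 and 2.97 on day 3, 9.26 and 8.10 on day 5, and 14.2 and 13.0 on day 7. Its log2 fold changes were -1.17 ± 0.16 at day 3 (adjusted p = 0.00025), 0.40 at day 5, which was not called, and 1.05 ± 0.16 at day 7 (adjusted p = 0.00049). In whole nerve it rose throughout, from 7.98 and 8.05 to 11.3 and 11.9 on day 3, 13.7 and 12.8 on day 5, and 15.7 and 13.7 on day 7. The log2 fold changes there were 0.52 ± 0.10, 0.72 ± 0.10 and 0.88 ± 0.10, with adjusted p of 0.0018, 0.00029 and 8.8e-05. The responses differed at day 3, by -1.79 ± 0.20 (adjusted p = 1.4e-05). Dkk2 had 0 to 13 counts in Schwann cells and did not pass the filter there. In whole nerve it was at 12.8 and 6.96 uncrushed, 5.58 and 5.08 on day 3, 7.03 and 5.81 on day 5, and 4.40 and 3.71 on day 7. It fell at day 7 (-1.3, adjusted p = 0.0028) and at day 3 (-0.90, adjusted p = 0.012), the latter lost without replicate 1 of uncrushed nerve (-0.38), without replicate 2 of day 3 (-0.82) and in the fit of all 16 libraries (-0.83), with adjusted p of 2.18e-06 to 0.162. Dkk4 had 39 to 66 counts per Schwann cell library and 15 to 62 per whole nerve library and was not called against uncrushed. The Wnt-binding antagonists Frzb and Wif1 were low, at 0 to 2 and 3 to 13 counts in Schwann cells and 0.468 to 1.24 and 0.124 to 0.736 normalised FPKM in whole nerve, with no call against uncrushed.

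Axin2 was not called in Schwann cells, where it was at 1.76 and 2.21 uncrushed, 1.78 and 1.67 on day 3, 1.41 and 2.09 on day 5, and 1.55 and 1.57 on day 7. The log2 fold changes were -0.21 ± 0.25, -0.19 ± 0.25 and -0.35 ± 0.25, with adjusted p of 0.50, 0.55 and 0.28, and the groups overlapped at days 3 and 5. In whole nerve it was at 1.75 and 2.88 uncrushed, 1.49 and 1.07 on day 3, 1.57 and 1.47 on day 5, and 1.75 and 1.58 on day 7. The call at day 3 (-0.84, adjusted p = 0.031) was lost without replicate 2 of uncrushed nerve (-0.45), which is the library with more skeletal muscle marker RNA, without replicate 2 of day 3 (-0.61) and with DESeq2 (-0.84), with adjusted p of 0.00872 to 0.257. Znrf3, which removes Frizzleds from the surface, was at 1.16 and 1.18 in uncrushed Schwann cells, 0.802 and 0.903 on day 3, 0.401 and 0.671 on day 5, and 0.821 and 0.555 on day 7. It was called at day 5 (-1.13, adjusted p = 0.034), a call that was lost with DESeq2 (-1.18) and without either uncrushed library (-1.13 and -1.15) or replicate 1 of day 5 (-0.79), with adjusted p of 0.0134 to 0.194. Its partner Rnf43 had 0 to 9 counts in every library and was not tested.

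The promoters of 4 genes are printed because they stand for 3 patterns in Schwann cells: Sfrp5 for the deepest fall, Fzd7 and Wnt11 for genes that rose from the floor, and Axin2 for a target gene with no call. Each is the 250 bases before the start of the gene in RefSeq on GRCr8, on the strand of the gene and from 5′ to 3′. The RefSeq table held promoters of 34 of the 51 genes. The core of the TCF/LEF motif, CTTTGA or its reverse complement TCAAAG, is in capitals.
Sfrp5, minus strand of chr1:250960513-250960762: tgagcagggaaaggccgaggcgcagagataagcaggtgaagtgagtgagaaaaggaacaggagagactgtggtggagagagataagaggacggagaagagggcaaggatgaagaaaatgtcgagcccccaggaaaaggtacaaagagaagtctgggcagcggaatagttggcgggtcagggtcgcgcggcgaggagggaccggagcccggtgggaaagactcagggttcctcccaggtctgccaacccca
Fzd7, plus strand of chr9:68425288-68425537: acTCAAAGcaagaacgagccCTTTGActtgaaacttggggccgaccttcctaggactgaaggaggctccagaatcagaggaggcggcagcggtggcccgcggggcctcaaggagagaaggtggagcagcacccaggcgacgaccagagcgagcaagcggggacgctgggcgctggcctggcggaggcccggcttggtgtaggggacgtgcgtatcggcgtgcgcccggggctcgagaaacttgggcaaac
Wnt11, plus strand of chr1:162549110-162549359: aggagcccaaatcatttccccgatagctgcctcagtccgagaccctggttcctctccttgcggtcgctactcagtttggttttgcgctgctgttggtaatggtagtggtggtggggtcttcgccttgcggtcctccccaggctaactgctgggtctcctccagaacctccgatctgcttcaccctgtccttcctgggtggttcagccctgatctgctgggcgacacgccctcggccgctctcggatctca
Axin2, plus strand of chr10:94398535-94398784: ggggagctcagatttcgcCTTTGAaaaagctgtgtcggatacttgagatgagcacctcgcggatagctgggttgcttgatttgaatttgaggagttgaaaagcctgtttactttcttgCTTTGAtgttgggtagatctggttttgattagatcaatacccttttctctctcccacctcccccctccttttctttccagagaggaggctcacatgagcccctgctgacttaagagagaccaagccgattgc
In the promoters of Fzd7 and Axin2 the letters occur at 2 places each, and in those of Sfrp5 and Wnt11 they do not occur. Searched on both strands over the same 250 bases before the start, the letters were in 4 of the 34 promoters, those of Axin2, Dkk1, Fzd7 and Wnt8a. They were in 13.8% of 27457 promoters in the table. The AP-1 letters TGANTCA were in 1 of the 34, that of Wnt16, and in 6.36% of all. These matches are letters in a window and not binding sites.

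The other genes of the pathway were taken from 4 lists. Of 26 intracellular transducers tested in Schwann cells, 6 rose and 6 fell at day 3, 10 rose and 6 fell at day 5, and 8 rose and 4 fell at day 7, with medians of 0.15, 0.13 and 0.14 on the log2 scale. These are 46.2%, 61.5% and 46.2% of the list, beside 52.5%, 54.6% and 46.9% of all genes tested. The largest changes at day 3 were those of Apc2 (-2.12), a relative of the scaffold Apc, Amer1 (-1.41), Btrc (1.28), the F-box protein that marks β-catenin for degradation, and Tnks (1.55), which destabilises axin. In whole nerve 4 transducers rose and 6 fell at day 3, 38.5% of the list beside 45.6% of all genes, with Apc2 (-2.22), Ctnnbip1 (-0.83), Pygo2 (0.46) and Tcf7 (0.71) at the ends. Of 16 genes for Wnt secretion and other extracellular modulators, 6 rose and 6 fell in Schwann cells at day 3, 7 rose and 6 fell at day 5, and 5 rose and 6 fell at day 7. These are 75%, 81.2% and 68.8% of the list, beside the same 52.5%, 54.6% and 46.9% of all genes. At day 3 the antagonist Sostdc1 (-3.71) and the norrin co-receptor Tspan12 (-2.35) were lowest, and Trabd2b (5.96), a protease that cuts Wnt ligands, and Draxin, an axon guidance protein, were highest. Draxin went from 1 count in each uncrushed Schwann cell library to 206 and 401, a ratio of 194 (95% counting interval 53.6 to 1609.6). In whole nerve Sostdc1 (-2.51), Ndp (-2.13), Trabd2b (2.30) and Draxin held these places, with 5 higher and 3 lower, together 8 of 16. That is 50% of the list, near the 45.6% of all genes. Draxin there went from 3 and 0 counts to 43 and 65, a ratio of 18.3 (95% counting interval 6.10 to 90.2).

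Of 15 genes for planar cell polarity and Wnt5a-type signalling, 3 rose and 6 fell in Schwann cells at day 3, 3 rose and 5 fell at day 5, and 5 rose and 5 fell at day 7. The called share was 60%, 53.3% and 66.7%, beside the same 52.5%, 54.6% and 46.9% of all genes. Daam2 (-2.35) and Prickle1 (-2.08) fell most and Celsr2 (1.49) and Vangl1 (2.43) rose most at day 3. In whole nerve 1 of 16 rose at day 3, Vangl1 (1.02), and 4 fell, among them Daam2 (-1.01) and Daam1 (-0.87), together 31.2% beside 45.6% of all genes. Of 13 feedback and target genes of β-catenin tested in Schwann cells, 6 rose and 5 fell at day 3, 5 rose and 5 fell at day 5, and 5 rose and 4 fell at day 7. The called share was 84.6%, 76.9% and 69.2% of the list, beside 52.5%, 54.6% and 46.9% of all genes. At day 3 Id2 (-4.12) and the feedback inhibitor Nkd1 (-2.94) fell most, and Sox9 (1.63) and Ccnd1 (3.17), which encodes cyclin D1, rose most. In whole nerve 6 rose and 2 fell at day 3, with Nkd1 (-1.65), Id2 (-1.13), Cd44 (1.89) and Ccnd1 (2.60) at the ends. There 61.5% were called, beside 45.6% of all genes. At days 5 and 7 of whole nerve 8 and 6 of them rose and 0 and 1 fell, with medians of 0.66 and 0.61, and the called shares of 61.5% and 53.8% stand beside 38.4% and 31.3% of all genes. Many of these genes are also controlled by other pathways.

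Schwann cells were also set beside whole nerve at the same time. In uncrushed tissue 7 of 38 tested genes were higher in Schwann cells and 16 lower, with 64.4% of all 16829 genes called, 29.1% higher and 35.3% lower. At day 3, 9 were higher and 18 lower, with 57.3% called, 24.5% higher and 32.8% lower. At day 5, 6 were higher and 20 lower, with 51.7% called, 23.2% higher and 28.4% lower. At day 7, 6 were higher and 19 lower, with 51.0% called, 22.4% higher and 28.7% lower. Higher in Schwann cells before crush were Lgr5 (by 3.24 ± 0.14 on the log2 scale, adjusted p = 1.9e-10), Fzd8 (2.45), Fzd5 (2.33), Lgr4 (2.10), Sfrp1 (1.88), Wnt6 (1.56) and Fzd3 (0.91). Of these, the call of Fzd5 was lost without replicate 2 of uncrushed Schwann cells (1.5) or replicate 1 of uncrushed nerve (1.65), with adjusted p of 0.00752 to 0.16, and its value was 3.18 without replicate 2 of uncrushed nerve. The advantage of Lgr5 was 1.35 at day 3 and 0.39 at day 7, the latter lost without replicate 2 of Schwann cells at day 7 (0.32) or either whole nerve library of day 7 (0.38 and 0.39), with adjusted p of 0.00819 to 0.151, and at day 5 it was not called (0.34). Fzd3, Fzd8, Lgr4 and Sfrp1 were higher in Schwann cells at all 4 times. The share of all genes higher at all 4 was not counted.

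Lower in Schwann cells at all 4 times were the R-spondins Rspo1 and Rspo3, the antagonists Sfrp2, Sfrp4, Dkk2 and Frzb, the ligands Wnt2, Wnt2b, Wnt5a and Wnt9b, and Fzd2 and Fzd4. The share of all genes lower at all 4 times was not counted either, so this list has no yardstick. Before crush the level of Wnt2 in Schwann cells was at least 106-fold below that in whole nerve, that of Rspo3 at least 49.2-fold and Frzb at least 15.1-fold, each against a floor of 3 counts over the group. Rspo1 was lower by a ratio of 77.6 (95% counting interval 29.9 to 287). Dkk2 was at least 132-fold lower at day 7. On the log2 scale the difference of Sfrp4, Schwann cells minus whole nerve, was -4.91 ± 0.25 before crush and -6.69 ± 0.28 at day 7, and that of Fzd4 was -2.78 ± 0.19 and -5.87 ± 0.25. Wnt9b had 0 counts in uncrushed Schwann cells and 8 in uncrushed nerve, at least 3.37-fold lower against the same floor. Of these calls, that of Wnt9b before crush was lost without either uncrushed Schwann cell library or replicate 1 of uncrushed nerve, with adjusted p of 0.0167 to 0.21, and that of Rspo3 at day 7 (-2.30) without replicate 1 of Schwann cells at day 7 (-1.49), with adjusted p of 2.25e-05 to 0.077. Without replicate 2 of Schwann cells at day 7 the value of Rspo3 was -3.66. Sfrp5 and Fzd1 did not pass the test before crush, at 0.21 and -0.18, and were lower in Schwann cells at every day after it, with differences of -4.83 ± 0.35 and -2.86 ± 0.12 at day 3. Without replicate 2 of Schwann cells at day 3 the value of Sfrp5 was -5.49. Fzd6 was lower before crush (-4.54 ± 0.22) and was not called at days 3, 5 or 7.

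**Figure D4:**
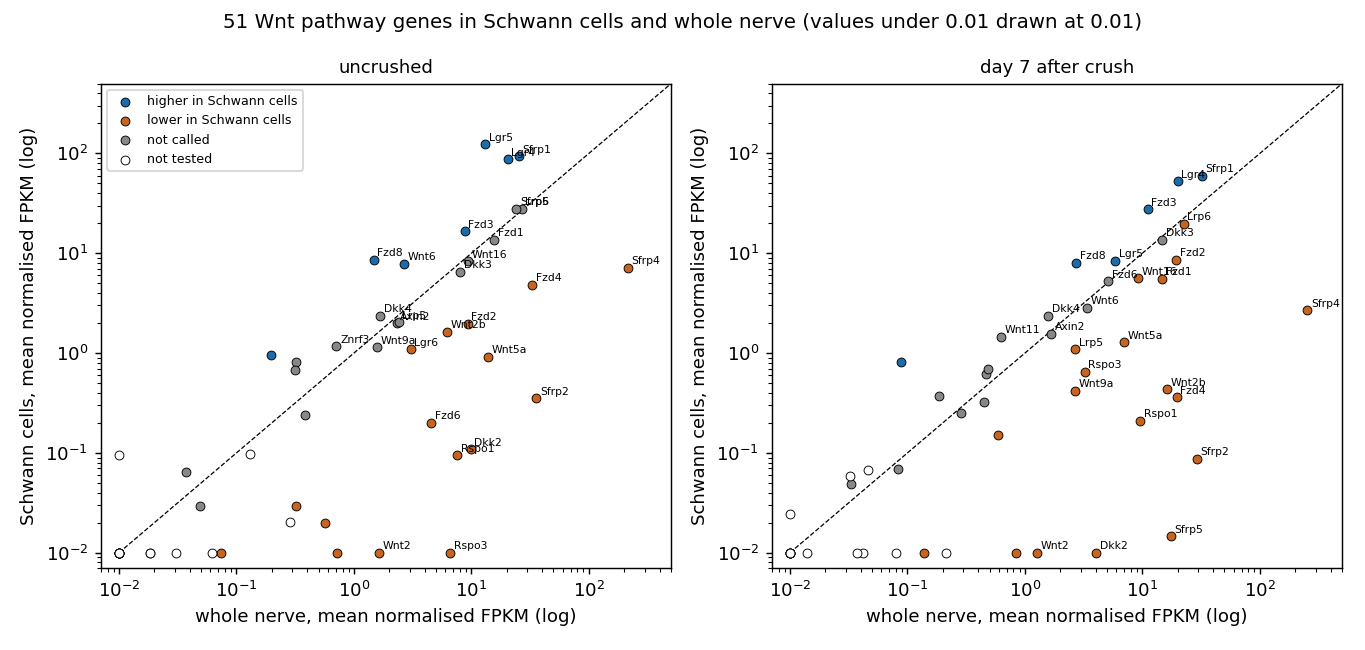
Mean normalised FPKM of the 51 genes in Schwann cells (vertical, log axis) against whole nerve (horizontal, log axis), uncrushed (left) and at day 7 (right), with values under 0.01 drawn at 0.01 and the dashed line at equality. FPKM was scaled within each tissue, and the colours give the calls of the count test across both. Lgr5 lies far above the line before crush and near it at day 7, Sfrp5 moves from the line to far below it, and Sfrp4, Rspo1 and Wnt2 lie below the line at both times.

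Between day 3 and day 7, 5 of 30 genes rose and 5 fell in Schwann cells, with 21.0% of all genes called, 10.2% higher and 10.7% lower. In whole nerve 9 of 34 rose and 1 fell, with 21.2% called, 9.85% higher and 11.4% lower. The count of 10 in Schwann cells dropped to 6 without replicate 1 of day 7. That of 10 in whole nerve dropped to 4 without replicate 1 of day 3, to 6 without replicate 2 of day 3 and to 5 without replicate 1 of day 7. The total called over all genes also dropped in each of these fits. The Schwann cell genes that rose were Wnt5a (3.70), Dkk3 (2.22), Fzd1 (1.44), Fzd8 (0.42) and Lgr5 (0.42). Those that fell were Sfrp5, Wnt9a (-1.61), Fzd7 (-1.40), Sfrp1 (-0.89) and Wnt2b (-0.62). The call of Fzd8 was lost under 6 of 11 alternatives, among them without any 1 of its 4 libraries (0.35 to 0.49), and that of Wnt2b under 9 of 11, again without any 1 (-0.72 to -0.50), with adjusted p of 0.0158 to 0.132 and 0.0396 to 0.223. Sfrp5 at day 7 was a ratio of 16.4 below day 3 (95% counting interval 2.64 to 675). Its fitted value of -3.74 became -6.14 and -3.09 without replicate 1 or 2 of day 7, and its call was lost without replicate 2 of day 3 (-3.05), with adjusted p of 0.000318 to 0.0838. In whole nerve Lgr5 (1.36), Fzd8 (1.18) and Wnt2b (1.02) rose and Sfrp2 (-1.22) fell, and these 4 calls held under every alternative tried. The other 6, of Dkk3, Fzd3, Lrp6, Rspo1, Sfrp5 and Wnt6, each rose and each lost its call under some alternative (0.26 to 1.07 where lost, with adjusted p of up to 0.273).

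Of the 51 genes, 14 did not pass the filter in either tissue. They were Fzd9, Fzd10, Rnf43, Rspo2, Rspo4, Wnt1, Wnt3, Wnt3a, Wnt4, Wnt5b, Wnt7a, Wnt7b, Wnt8a and Wnt8b, with at most 27 counts in any library, that of Rspo2 in whole nerve at day 5. Wnt3a had no count in any of the 16 libraries, and Wnt4, Wnt8a and Wnt8b had 1 count each over all 16. Of the 14, Rspo2 was tested in the fit of 16 libraries alone, with no call. The fit of each tissue gives no adjusted p for these genes. Rspo2 in whole nerve had 2 and 2 counts uncrushed and 9 and 27 at day 5, and Rnf43 in Schwann cells had 2 and 9 uncrushed, 0 and 2 at day 3 and 0 and 0 at day 5. Wnt9b, which passed in whole nerve with 1 to 24 counts per library, had 0 counts in all 8 Schwann cell libraries and was not called against uncrushed.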

How the data were processed

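RNA from 16 libraries (8 groups of 2) was amplified as cDNA without molecular identifiers and sequenced. The authors aligned the reads to Rnor_6.0 with STAR and deposited, per library, RSEM expected counts, FPKM and TPM for 31038 genes. Deposited TPM values, a count matrix of the whole series and a table of module genes were not used. The expected counts were rounded and tested here with edgeR 4.0.16 in R 4.3.3 (TMM, filterByExpr, quasi-likelihood test, Benjamini-Hochberg threshold 0.05), with separate fits for Schwann cells and whole nerve and a fit of all 16 libraries for differences between tissues. The SE is the log2 fold change divided by the root of F. Deposited FPKM values were divided by the TMM factor of the tissue's fit. The kit is not stated to keep strand. Counting intervals and floors cover counting error only. Whether the 2 libraries of a group came from separate dissections is not given in the sources used here, so p-values measure the spread between these libraries, which may be technical.

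The 51 genes, the lists and the tests were chosen with earlier results of these data known. Genes called against uncrushed at some day are given with the value in every library of that tissue, genes called at all 3 days or with a called difference of the injury effect also with SE and adjusted p (for genes with a group at the floor, a ratio or bound with adjusted p; for the differences of the injury effect, the range of adjusted p), other tested genes by their range, and from each list the 2 largest and 2 smallest called changes at day 3. Rspo3 and the other R-spondins in Schwann cells were named after their values were seen. Alternatives were DESeq2 1.42.0 size factors or upper quartile scaling in place of TMM, no filter or at least 10 counts in every library, the DESeq2 Wald test, a replicate block, all 16 libraries in one fit, and leaving out each library. The fits were tested on simulated data. Same-numbered libraries did not deviate together (r -0.0587 to 0.126), so the replicate number was not used as a pair.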

Additional observations from a re-analysis of the deposited data

Results flagged for a closer look

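Each gene below is given because its change after crush differed between Schwann cells and whole nerve by the interaction test of edgeR, with Benjamini-Hochberg adjustment over 16829 genes. The values are log2 differences ± SE, the change in Schwann cells minus that in whole nerve, and both tissues have 2 libraries per group. Adjusted p ran from 4.66e-08 to 0.0334 at day 3, from 8.14e-08 to 0.033 at day 5 and from 1.06e-07 to 0.0365 at day 7. The explanations were not tested. At day 3 there were 14: Dkk3 (-1.79 ± 0.20), Fzd1 (-2.67 ± 0.16), Fzd2 (1.01 ± 0.31), Fzd4 (-2.54 ± 0.28), Fzd6 (4.70 ± 0.27), Fzd7 (6.18 ± 0.65), Lgr5 (-1.90 ± 0.19), Lrp5 (-1.46 ± 0.34), Sfrp4 (-1.46 ± 0.34), Sfrp5 (-5.04 ± 0.43), Wnt11 (4.31 ± 0.94), Wnt2b (-1.82 ± 0.26), Wnt5a (-2.08 ± 0.54) and Wnt6 (-1.42 ± 0.46). Without replicate 2 of Schwann cells at day 3 the value of Sfrp4 was -2.37 and that of Wnt5a -3.09, and the call of Wnt5a was lost without replicate 1 of uncrushed Schwann cells (-1.67) or replicate 1 of day 3 (-1.69). At day 5 there were 17: Fzd1 (-1.74 ± 0.16), Fzd2 (1.06 ± 0.31), Fzd4 (-3.16 ± 0.29), Fzd6 (4.36 ± 0.27), Fzd7 (6.32 ± 0.66), Fzd8 (-1.27 ± 0.23), Lgr4 (-0.79 ± 0.19), Lgr5 (-2.91 ± 0.19), Lrp5 (-1.15 ± 0.34), Rspo1 (1.89 ± 0.60), Rspo3 (5.98 ± 1.91), Sfrp1 (-1.13 ± 0.16), Sfrp5 (-6.15 ± 0.50), Wnt11 (3.29 ± 0.95), Wnt2b (-3.21 ± 0.28), Wnt6 (-1.58 ± 0.45) and Wnt9a (-1.51 ± 0.40). Rspo3 lost its call without any 1 of its 8 libraries (5.90 to 6.03), and Rspo1 lost it with DESeq2 (1.92) and without either uncrushed Schwann cell library (1.80 and 1.99), replicate 1 of uncrushed nerve (1.84), replicate 1 of Schwann cells (1.72) or replicate 2 of whole nerve at day 5 (1.74). At day 7 there were 18: Fzd1 (-1.35 ± 0.16), Fzd2 (0.95 ± 0.31), Fzd4 (-3.10 ± 0.31), Fzd6 (4.45 ± 0.28), Fzd7 (4.93 ± 0.69), Fzd8 (-1.30 ± 0.23), Lgr4 (-0.84 ± 0.19), Lgr5 (-2.86 ± 0.19), Lrp5 (-1.19 ± 0.34), Rspo3 (7.19 ± 1.73), Sfrp1 (-1.11 ± 0.16), Sfrp4 (-1.78 ± 0.35), Sfrp5 (-9.94 ± 0.63), Wnt11 (3.55 ± 0.97), Wnt2b (-3.47 ± 0.27), Wnt5a (1.36 ± 0.40), Wnt6 (-1.95 ± 0.45) and Wnt9a (-2.30 ± 0.41). The value of Rspo3 became 7.98 or 5.83 and that of Sfrp5 -12.28 or -9.30 without replicate 1 or 2 of Schwann cells at day 7. Wnt5a lost its call without replicate 2 of uncrushed Schwann cells (1.07), replicate 1 of uncrushed nerve (1.04), Schwann cell replicate 2 (1.18) or whole nerve replicate 1 (1.23) of day 7. Fzd7, Wnt11, Rspo1 and Rspo3, and Sfrp5 at day 7, had a Schwann cell group at the floor, so their values depend on the prior count and are no bound. Rspo3 had 0 counts in uncrushed Schwann cells, 11 at day 5 and 17 at day 7, of which 13 were in replicate 2, so its change there is at least 2.74-fold at day 5 and at least 4.89-fold at day 7, against 3 counts over the uncrushed group.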

How the results depend on the processing

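With at least 10 counts in every library fewer of the 51 genes were tested (20 or 19), and the counts of called genes were 13 and 15 in Schwann cells at days 3 and 5, 10, 13, 15 and 14 between tissues uncrushed and at days 3, 5 and 7, and 11 for the difference of the injury effect at day 5. Leaving out 1 library gave 20 to 21, 18 to 20 and 20 to 21 in Schwann cells for the 3 days in turn, and 6 to 9 between days 3 and 7. In whole nerve these ranges were 11 to 13, 4 to 11, 7 to 12 and 4 to 7. Between tissues they were 20 to 22, 24 to 26, 24 to 27 and 23 to 24, and for the difference of the injury effect 12 to 15, 13 to 15 and 16 to 18. The replicate block, run although the numbers pair nothing, gave 21, 24 and 21 in Schwann cells and 15, 14 and 11 in whole nerve at days 3, 5 and 7. Every other total of called genes among the 51 was within 1.5 times that reported. By direction, the genes higher went from 6, 6 and 7 to 2, 2 and 3 in Schwann cells at days 3 to 7 with at least 10 counts, and from 4, 6 and 6 to 2, 1 and 1 for the difference of the injury effect, the genes lower from 16, 18, 20 and 19 to 4, 7, 9 and 9 between tissues, and in whole nerve from day 3 to day 7 the genes lower from 1 to 2 with no filter. Upper quartile scaling moved the median of all genes between tissues by 0.137 at day 5 and 0.103 at day 7. In the fit of all 16 libraries 60.8% of the genes called in whole nerve at day 7 were higher, against 49.3%.

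Values that turned direction were all uncalled, and did so as 1 library was left out. Over these fits Wnt16 ran from -0.26 to 0.0069 in Schwann cells at day 3, turning without replicate 2 of that day, and Axin2 from -0.48 to 0.081 at day 5, turning without replicate 1 of that day. In whole nerve Fzd6 ran from -0.017 to 0.41 at day 3 and from -0.032 to 0.39 at day 7, turning without replicate 2 of uncrushed nerve. Fzd7 ran from -0.43 to 0.22 at day 3 and from -0.52 to 0.058 at day 7, turning without replicate 1 of uncrushed nerve and at day 3 also without replicate 1 of that day (0.14). Sfrp5 between uncrushed tissues ran from -0.047 to 0.51, turning without replicate 1 of uncrushed nerve. The cause was not tested.

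Of the calls, 19 of 21, 16 of 23 and 18 of 20 in Schwann cells and 9 of 14, 4 of 12 and 7 of 10 in whole nerve at days 3, 5 and 7 held under every alternative in which the gene was tested. A group with 3 counts or fewer in each library limits a fold to a ratio with a wide interval or to a bound. Of 34 uncalled values recomputed, 12 passed the threshold under some alternative. In Schwann cells these were Wnt16 at days 5 and 7 (3 and 7 alternatives), Dkk3 at day 5 (4), Fzd8 (4) and Lgr6 (3) at day 7 and Wnt10a at day 3 (1). In whole nerve they were Wnt2b (4) and Lgr4 (1) at day 3, Sfrp4 (3) and Axin2 (1) at day 5 and Sfrp5 at day 7 (1), and between the tissues Lgr5 at day 5 (4).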
